A study of Mus musculus with 92 samples.

Results

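Quadriceps muscle RNA from 92 mice was profiled, and the 23 animals with the highest Pdk4 level were compared with the 23 animals with the lowest, 46 of 92 animals in all. The animals were ranked on the log2 Pdk4 value alone, every other gene was then compared between both ends of the ranking, and the 46 animals between them were kept aside as animals that the ranking did not use for the comparison. All animals, in both sets, were DOz mice, an outbred stock whose members differ from one another in genotype, had eaten standard chow throughout life and were about 18 to 20 weeks old. The sets are therefore ends of a natural range, not treatment groups, and the labels name no feeding state, time of day, sex or litter for them. A difference between the sets is an association with Pdk4, and in bulk muscle fewer cells of a type and less RNA per cell cannot be told apart.

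Pdk4 encodes pyruvate dehydrogenase kinase 4, a mitochondrial enzyme that phosphorylates and so switches off the pyruvate dehydrogenase complex, the gate through which carbon from glucose enters the citric acid cycle. Pyruvate dehydrogenase phosphatases reverse the mark. In muscle the Pdk4 transcript is known to be induced by fasting, through the fatty acid receptors of the PPAR family, the FoxO transcription factors and the glucocorticoid receptor, and the induction spares glucose while fatty acids are burned. The genes described here were grouped by these known inputs and by the fuel pathways that they feed.

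Over all 92 animals Pdk4 ran from 7.05 to 11.76 on the log2 scale of the table, which is close to log2 CPM, with a median of 9.86 and a mean of 9.82 ± 0.97 (SD), a 26.2-fold range. In the 23 animals chosen as highest it ran from 10.72 through a median of 10.86 to 11.76, and in the 23 chosen as lowest from 7.05 through 8.73 to 9.09. The means were 10.97 ± 0.29 and 8.49 ± 0.55 (SD, n = 23 each), 2.48 apart or 5.57-fold, which is the choice of animals and not a result. The ranking had no wide step at either border: the last animal inside the high set stood at 10.72 and the next outside at 10.57, and the last inside the low set at 9.09 and the next outside at 9.14. The upper set was tighter than the lower, in which the lowest animal stood well below the rest.

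**Figure D1:**
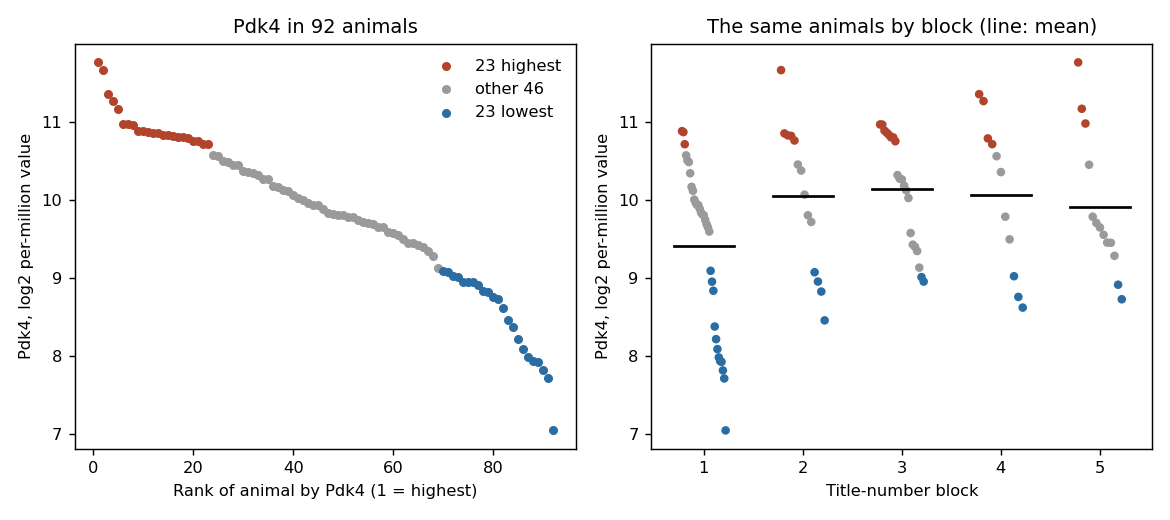
Left, Pdk4 (log2 value) of each of the 92 animals against its rank, with the 23 highest in red, the 23 lowest in blue and the other 46 in grey; right, the same animals by title-number block, with the block mean as a line. The ranking is continuous at both borders, and block 1, with the lowest mean (9.41), holds 12 of the 23 lowest animals.

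The 23 lowest animals were not spread evenly over the series. The sample titles end in numbers that form 5 runs separated by wide gaps, called title-number blocks here, whose meaning the labels leave unstated. Block 1 held 12 of the 23 lowest but only 3 of the 23 highest animals, and its mean Pdk4 was 9.41 against 9.92 to 10.14 in the other blocks. Fits with the block as a covariate are therefore given beside the calls that they end. The general measures of the libraries were alike: the sample median ran from 3.46 to 3.54 in the low set and from 3.43 to 3.55 in the high set, and messenger RNAs of the mitochondrial genome took a median of 16.81% of the summed signal in the low set and 16.98% in the high set. The fast fibre markers were abundant in every animal of both sets, as the tissue label implies, with a summed level of at least 130500 on the linear CPM scale in the low set and 100200 in the high set.

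The Pdk4 gene lies at chr6:5483351-5496309 on the minus strand (GENCODE M21, GRCm38). The 250 bases before its RefSeq start, chr6:5496279-5496528 (minus strand, GRCm38.p6), are shown because this is the start-site region of the gene that ranks the animals:
Pdk4: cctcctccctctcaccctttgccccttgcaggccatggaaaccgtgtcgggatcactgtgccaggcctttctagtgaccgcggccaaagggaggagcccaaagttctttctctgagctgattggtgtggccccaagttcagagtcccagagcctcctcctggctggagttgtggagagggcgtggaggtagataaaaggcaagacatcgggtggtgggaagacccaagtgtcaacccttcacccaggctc
Windows of 300 bases (250 before to 50 after the start) were searched on both strands for the letters GTAAACA (FoxO), CACGTG (E-box, the site of clock factors) and TTATGTAA (D-box, the site of Dbp and Nfil3), and for the direct repeat of the PPAR response element and the palindrome of the glucocorticoid receptor. None of these motifs stood in the Pdk4 window, so it is printed without capitals, and this says nothing about sites elsewhere in the gene.

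Of 13440 genes other than Pdk4, 463 differed between the sets in limma with Benjamini-Hochberg adjustment at 0.05, which is 3.44% of the genes tested, and 2089 (15.5%) had an unadjusted p under 0.05. The high-Pdk4 animals had higher levels of 252 genes (1.88%) and lower levels of 211 (1.57%), and the median absolute difference of the 463 was 0.44 on the log2 scale. At least 2-fold differences were found for 31 of them, 25 higher and 6 lower. For no gene, 0 of 13440 (0%), were the values of both sets fully separate. With the block added as a covariate, 138 genes passed (1.03%), and all 463 kept their direction and a median of 0.925 of the size of their difference. Without the animals of block 1, which left 20 against 11 animals, 26 genes passed (0.193%), while all 463 kept their direction and a median of 0.949 of the size. With the clock genes Dbp and Bmal1 as covariates, 17 passed (0.126%): the difference of the 463 genes kept a median of 0.85 of its size and the standard error over all genes rose by a median factor of 1.5. These fits use the animals in which the 463 genes were picked, or most of them. A kept direction or size is therefore largely fixed by that choice and is no separate support. Of the 57 called genes that the naming rule picked, 37 passed with the block, 10 without block 1, and 5 with Dbp and Bmal1, which were Ucp3, Acot2, Cpt1a, Zbtb16 and Ttyh2.

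Among the other 46 animals, in which Pdk4 spans only 9.14 to 10.57, the slope of each gene on Pdk4 passed the same threshold for 2 genes (0.0149%), Ucp3 and Rgma, and 1311 genes (9.75%) had an unadjusted p under 0.05. Of the 463 genes, 376 had a slope of the same sign as their difference (81.2%), against 58.4% of all genes tested. An unadjusted p under 0.05 with the same sign was found for 97 of the 463, and with the opposite sign for 4. Of all genes tested, 47.42% had a positive difference between the sets and 48.75% a positive slope in these 46 animals. These shares are the background for the counts of positive members in the lists below.

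Of the genes that act on pyruvate dehydrogenase, 1 phosphatase passed the threshold. Pdp1, the catalytic subunit of the phosphatase that reactivates the complex, ran from 6.28 through a median of 6.78 to 7.50 in the low-Pdk4 animals and from 5.40 through 6.18 to 6.72 in the high-Pdk4 animals. All 23 high animals lay below the median of the low animals, and 14 of the 23 lay below every low animal. Pdp1 was thus lower where Pdk4 was higher: it fell by 0.58 ± 0.09 (SE), an adjusted p of 8.76e-05, and stayed past the threshold with the block as a covariate (-0.57, adjusted p = 0.000952) and without block 1 (-0.54, adjusted p = 0.0256). The call was lost with Dbp and Bmal1 (-0.46, adjusted p = 0.205) and with the first 3 principal components (-0.39, adjusted p = 0.248). Its slope among the other 46 animals was -0.12 ± 0.12. Pdp1 was the only gene past the threshold in a list of 13 pyruvate dehydrogenase genes (kinases, phosphatases, subunits and pyruvate carriers), whose median difference was 0.03 against -0.01 over all genes. Pdk2, the kinase isoform of resting muscle, differed by -0.01 ± 0.05 (adjusted p = 0.937), and the second phosphatase, Pdp2, by 0.48 ± 0.17 (adjusted p = 0.119). Pdp2 did pass with 15 animals per set (0.79, adjusted p = 0.0207) and by its slope on Pdk4 over all 92 animals (0.22 per log2 unit, adjusted p = 0.00401).

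Genes that answer fatty acids through the PPAR receptors in fasted muscle formed a list of 18, of which 16 were in the table. Of the 16, 8 were higher in the high-Pdk4 animals and 0 lower, against 1.88% and 1.57% of all genes tested, and the list's median difference was 0.26. With the block as a covariate 6 passed, and with Dbp and Bmal1 as covariates, or without block 1, 3 passed in each case. In the other 46 animals the slopes of this list were mixed, 7 positive and 9 negative.

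Ucp3, a mitochondrial uncoupling protein of muscle (chr7:100472990-100486432), differed most clearly. It ran from 5.96 through a median of 6.43 to 6.95 in the low animals and from 6.85 through 7.76 to 8.70 in the high animals. Of the 23 high animals, 22 lay above every low animal. The difference was 1.40 ± 0.10 (SE), 2.63-fold, with an adjusted p of 4e-14. It was 1.31 with the block, 1.35 with Dbp and Bmal1, 1.33 without block 1 and 0.90 with the first 3 principal components as covariates, past the threshold each time. In the other 46 animals Ucp3 rose by 0.55 ± 0.10 per log2 unit of Pdk4 (adjusted p = 0.0201), and its slope over all animals of a block lay between 0.46 and 0.68 in the 5 blocks.

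The other members of this list followed with wider overlap. Acot2, a mitochondrial acyl-CoA thioesterase, ran from 2.80 to 4.14 (median 3.51) in the low animals and from 3.35 to 5.78 (median 4.50) in the high animals, a difference of 1.07 ± 0.13 (adjusted p = 1.35e-06). Its near-identical neighbour Acot1 was not analysed here, so how reads were divided between the copies is not known. Angptl4, a secreted inhibitor of lipoprotein lipase, differed by 1.53 ± 0.24 (adjusted p = 9.83e-05), and all 23 high animals stood above the low median of 2.60. Of the 23 low animals, 18 lay below every high animal, while the highest low animal stood at 5.11 and the highest high animal at 5.08. Slc25a34, a mitochondrial carrier, differed by 0.92 ± 0.15, Plin5, which coats lipid droplets at mitochondria, by 0.74 ± 0.15, and Cpt1a, a carnitine palmitoyltransferase, by 0.57 ± 0.10. Mlycd (0.31) and the acylcarnitine carrier Slc25a20 (0.20) were also past the threshold, but not with the block as a covariate (adjusted p = 0.0774 and 0.12). The lipid droplet protein Plin2 (0.20 ± 0.09, adjusted p = 0.26) was not. Among the other 46 animals the slopes of Acot2 (0.08 ± 0.18), Slc25a34 (-0.24 ± 0.20) and Plin5 (-0.21 ± 0.20) did not pass even without adjustment (unadjusted p = 0.645, 0.237 and 0.29). Those of Cpt1a (0.26 ± 0.12, unadjusted p = 0.0402) and Angptl4 (0.42 ± 0.22, unadjusted p = 0.0613) were positive and did not pass adjustment.

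**Figure D2:**
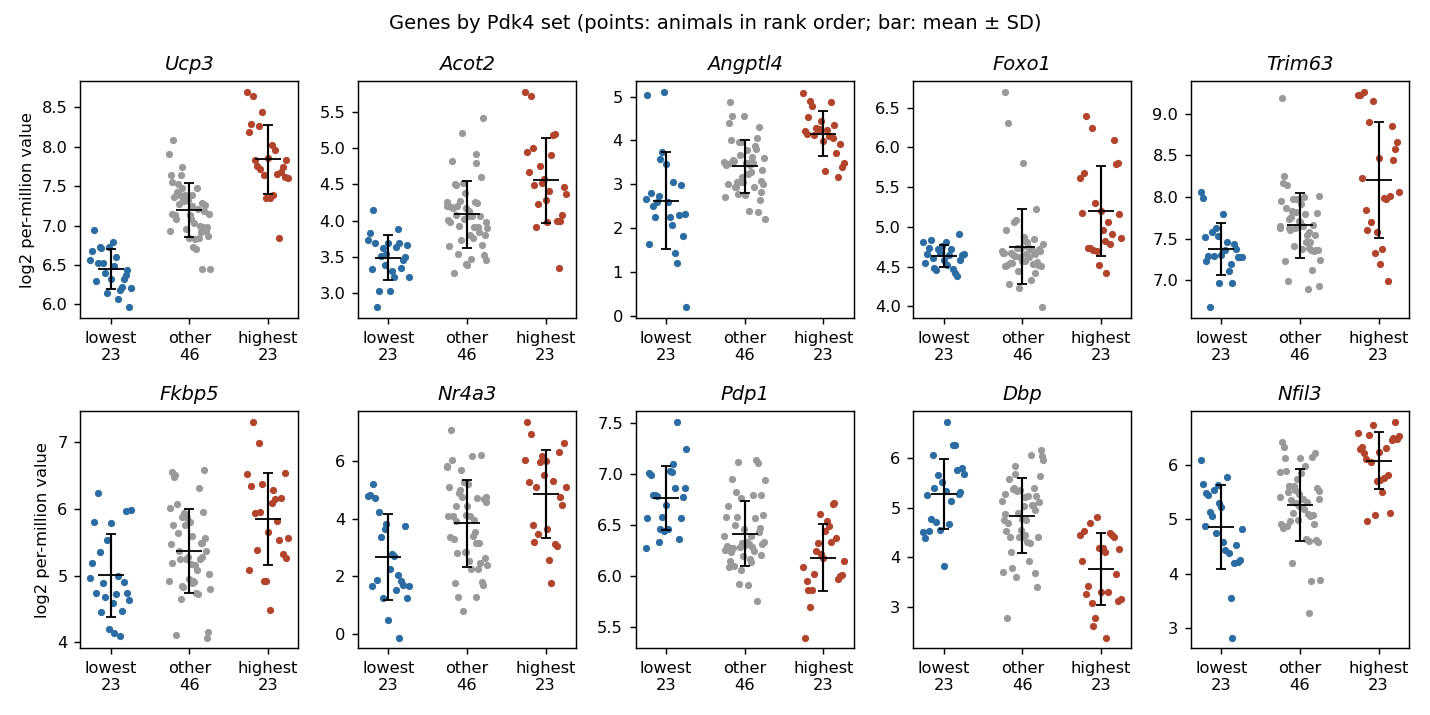
Log2 values of 10 genes in the 23 lowest (blue), the other 46 (grey) and the 23 highest (red) Pdk4 animals, points within a set in rank order and bars at the mean ± SD. Ucp3 separates the sets almost completely (22 of 23 high animals above every low animal), Pdp1 and Dbp are lower in the high set, 18 of the 23 low animals lie below every high animal in Angptl4, and 11 of the 23 high animals lie above every low animal in Nr4a3.

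The enzymes of fatty acid oxidation showed small shifts. All 18 enzymes of the list had a positive difference, against 47.42% of all genes tested, between 0.02 and 0.37 with a median of 0.17. Of them 4 passed, against 1.88% of all genes called higher: Acadl (0.37 ± 0.10), Eci1 (0.28 ± 0.08), Acsl1 (0.27 ± 0.07) and Cpt1b (0.17 ± 0.05), respectively an acyl-CoA dehydrogenase, an enoyl-CoA isomerase, an acyl-CoA synthetase and the muscle carnitine palmitoyltransferase. With the block as a covariate 1 passed, Acsl1, and 0 passed with Dbp and Bmal1 as covariates or without block 1. Without block 1 the list median was 0.19, Acadl differed by 0.44, Eci1 by 0.28, Acsl1 by 0.26 and Cpt1b by 0.19. With Dbp and Bmal1 the list median was 0.15, and these 4 differed by 0.36, 0.33, 0.29 and 0.13. In the other 46 animals 0 of 18 slopes were positive, with a median of -0.11, so the shared direction did not carry over to animals outside the sets. Markers of slow, oxidative fibres went the same way in each case: all 9 were positive between the sets (median 0.63, 1 past the threshold, Myl3) and 0 of 9 slopes were positive in the other 46 animals (median -0.75). The summed slow fibre level ran from 78.4 through 145.3 to 905.7 on the linear CPM scale in the low animals and from 124.2 through 210 to 1418 in the high animals. With the slow fibre score as a covariate 401 genes passed (2.98%), 3 of them fatty acid oxidation enzymes, and all 18 differences stayed positive. With all 8 marker scores as covariates, those of slow and fast fibres among them, 2 of the enzymes passed and all 18 differences were positive, with a median of 0.16.

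Genes of fatty acid uptake and lipolysis gave no call, 0 of 16, against 3.44% of all genes tested. Their median difference was 0.16, and 9 of 16 had an unadjusted p under 0.05, against 15.5% of all genes. There were 2 calls with 30 animals per set, and 1 each with 15 per set, by slope over all 92 animals and without the highest and the lowest animal. The fatty acid transporter Cd36 had medians of 8.21 in the low and 8.32 in the high animals (difference 0.20 ± 0.08, adjusted p = 0.19), and lipoprotein lipase, Lpl, differed by 0.24 ± 0.09 (adjusted p = 0.123). Of the 4 genes of ketone use, 0 passed. Glucose handling also gave 0 of 19 calls, with a median of 0.05: the insulin-responsive glucose transporter Slc2a4 differed by 0.06 ± 0.05 (adjusted p = 0.557), hexokinase 2, Hk2, by 0.13 ± 0.10 (adjusted p = 0.572) and Txnip, a brake on glucose uptake, by 0.22 ± 0.08 (adjusted p = 0.101). With other choices of animals glucose handling gave calls: 2 with 15 animals per set, 3 with 30 and 4 by slope over all 92 animals, and 1 with the slow fibre score as a covariate. Txnip passed in each of these (adjusted p = 0.00944 by slope and 0.0403 with the slow fibre score). Insulin signalling gave 0 of 17. In lists as short as these, 0 calls lie near the 3.44% of all genes called.

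**Figure D3:**
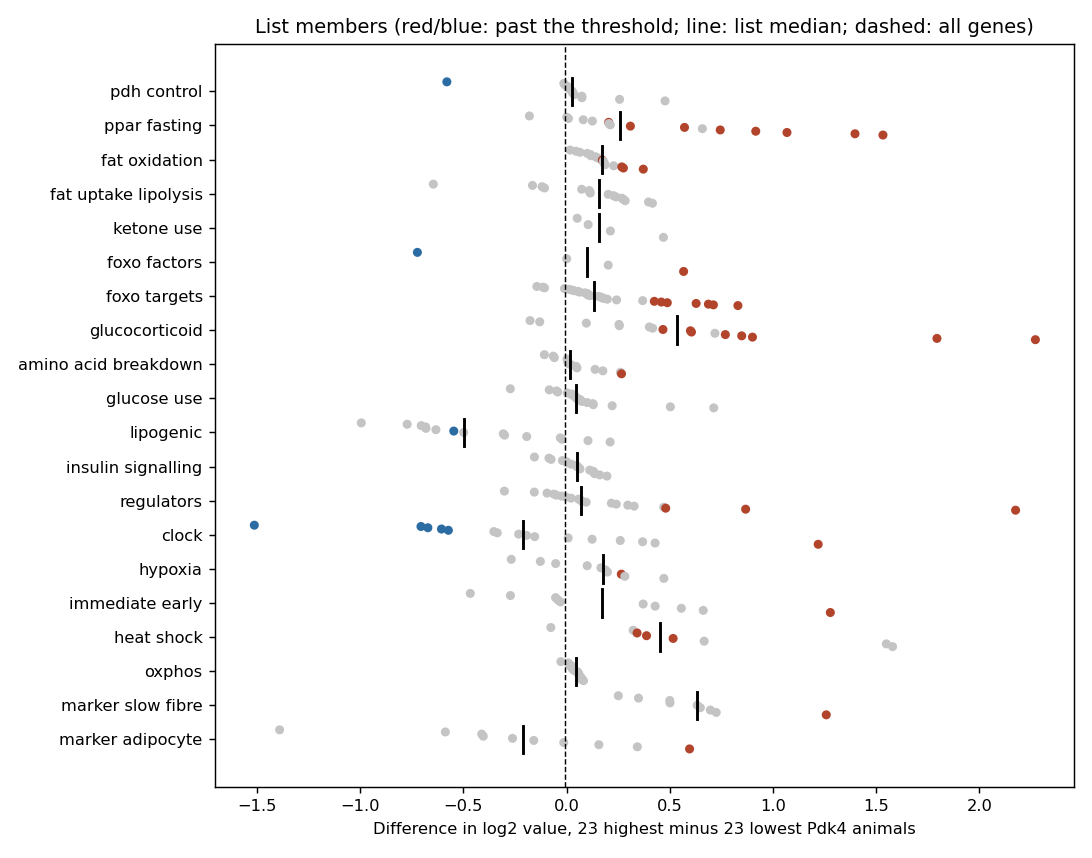
Difference in log2 value (high minus low Pdk4 animals) of each member of 20 gene lists, with members past the threshold in red (higher) or blue (lower), the list median as a line and the median of all genes as a dashed line. The PPAR and fasting, FoxO target and glucocorticoid lists hold 8, 7 and 8 red points, and the clock list 5 blue points and 1 red.

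The FoxO factors themselves diverged. Foxo1, a transcription factor that insulin keeps out of the nucleus, ran from 4.38 through a median of 4.65 to 4.91 in the low animals and from 4.42 through 5.06 to 6.40 in the high animals. The low animals were tightly grouped, and 14 of the 23 high animals lay above all of them. The difference was 0.57 ± 0.12 (adjusted p = 0.00253). It was 0.49 with the block (adjusted p = 0.0324) and 0.63 without block 1 (adjusted p = 0.0889). With Dbp and Bmal1 it was 0.46 (adjusted p = 0.408), and with the first 3 principal components -0.03 (adjusted p = 0.963). Foxo6 fell by 0.72 ± 0.15 (adjusted p = 0.00335), but was not past the threshold with the block (-0.57, adjusted p = 0.079), without block 1 (-0.56, adjusted p = 0.261) or with Dbp and Bmal1, where its difference was -0.15. Foxo3 differed by 0.20 ± 0.07 (adjusted p = 0.109), and Foxo4 was not past the threshold.

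Of 28 FoxO target genes of muscle, which cover the ubiquitin ligases of protein breakdown, autophagy and growth arrest, 7 were higher in the high-Pdk4 animals and 0 lower. The shares over all genes tested were 1.88% and 1.57%. The median difference of the list was 0.13. Trim63, the ubiquitin ligase MuRF1, ran from 6.67 through 7.30 to 8.06 in the low animals and from 6.99 through 8.06 to 9.27 in the high animals, and 11 of the 23 high animals lay above every low animal. Its difference was 0.83 ± 0.15 (adjusted p = 0.000635), and 0.80 with the block (adjusted p = 0.00893). Gabarapl1, an autophagosome protein, differed by 0.49 ± 0.08 (adjusted p = 0.000275), with all 23 high animals above the low median. Fbxo32, the ligase atrogin-1 that is commonly paired with Trim63, differed by 0.46 ± 0.13 (adjusted p = 0.0352), and its ranges, 8.47 to 10.39 and 8.996 to 10.80, overlapped for most animals. Irs2 (0.63), an insulin receptor substrate, Sesn1 (0.42), a stress-responsive inhibitor of growth signalling, and the growth arrest genes Gadd45a (0.69) and Cdkn1a (0.71) passed with adjusted p-values from 0.0372 to 0.0431.

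With the block as a covariate 2 of these 7 FoxO targets passed, Trim63 and Gabarapl1, and with Dbp and Bmal1 as covariates, or without block 1, 0 passed. The differences without block 1 were 0.93 for Trim63, 0.42 for Gabarapl1, 0.43 for Fbxo32 and 0.68 for Cdkn1a, and the list median was 0.16. With Dbp and Bmal1 the difference of Fbxo32 was -0.03 and that of Cdkn1a 0.04, while that of Trim63 was 0.47 and that of Gabarapl1 0.37. With the first 3 principal components the differences of Fbxo32 (-0.15), Irs2 (-0.015) and Cdkn1a (-0.010) turned negative. Those of Trim63 (0.05, adjusted p = 0.963) and Gabarapl1 (0.23, adjusted p = 0.506) were smaller than without them, and the list median was 0.04. In the other 46 animals 19 of 28 slopes were positive: those of Trim63 (0.46 ± 0.13, unadjusted p = 0.00117) and Fbxo32 (0.44 ± 0.14, unadjusted p = 0.00323) did not pass adjustment (adjusted p = 0.256 and 0.284).

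Promoter letters for FoxO, GTAAACA, are shown for a ubiquitin ligase of this list and for Tmem140, which is among the genes most like Pdk4. The 250 bases before the start of Trim63 are chr4:134314870-134315119 (plus strand) and of Tmem140 chr6:34862896-34863145 (plus strand), both RefSeq on GRCm38.p6, with the letters in capitals as they read on the gene's strand, where the reverse complement was found:
Trim63: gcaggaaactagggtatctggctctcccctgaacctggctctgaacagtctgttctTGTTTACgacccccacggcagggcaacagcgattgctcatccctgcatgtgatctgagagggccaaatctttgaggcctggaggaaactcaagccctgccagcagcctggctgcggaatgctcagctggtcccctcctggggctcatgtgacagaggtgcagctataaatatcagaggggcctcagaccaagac
Tmem140: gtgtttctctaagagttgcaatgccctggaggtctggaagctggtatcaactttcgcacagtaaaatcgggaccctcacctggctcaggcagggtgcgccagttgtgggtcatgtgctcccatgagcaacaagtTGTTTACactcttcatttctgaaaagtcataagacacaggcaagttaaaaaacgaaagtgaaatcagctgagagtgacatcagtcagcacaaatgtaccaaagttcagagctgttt
The match begins 194 bases before the start in Trim63 and 116 in Tmem140, which holds another that begins 5 bases before the start and runs past it. Directly before its match Trim63 reads tgaacagtctgttct. These bases differ from the searched glucocorticoid receptor letters at the first base only, so they were not counted and stand in lower case. The letters were found in 3.65% of all 32851 RefSeq windows and in 3.13% of the 10119 tested genes with a window. Among genes higher in the high-Pdk4 animals they stood in the windows of 14 genes (7.25%), and among lower genes in those of 3 (1.95%). The E-box letters were in 11.7% of tested genes, 15.5% of the higher and 9.74% of the lower genes. The PPAR and glucocorticoid receptor letters, as searched, were in only 4 and 1 of the tested genes (0.0395% and 0.00988%). They were in 0 of the windows of the higher and of the lower genes, which matches so rare could hardly have shown otherwise. A match of letters is a description of the sequence, and no binding was measured.

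Glucocorticoid-responsive genes gave 8 of 16 calls, all higher, against 1.88% of all genes tested, with a list median of 0.53. With the first 3 principal components the direction of the list turned. Its median was then -0.15, 5 of 16 differences were positive, and the 1 member past the threshold was lower. Zbtb16, a transcription factor, was the steadiest: it ran from 5.35 through 6.05 to 7.04 in the low animals and from 6.28 through 6.89 to 7.36 in the high animals, and all 23 high animals lay above the low median. Its difference was 0.77 ± 0.10 (adjusted p = 4.17e-06), 0.67 with the block (adjusted p = 0.000952) and 0.70 with Dbp and Bmal1 (adjusted p = 0.0448), but missed the threshold with the components (0.42, adjusted p = 0.233). The metallothioneins, metal-binding proteins of the stress response, differed most: Mt2 by 2.27 ± 0.47 (adjusted p = 0.00263) and Mt1 by 1.79 ± 0.31 (adjusted p = 0.000302). Mt2 was also the most scattered, from -1.08 to 4.01 in the low and from -1.22 to 5.94 in the high animals, and its difference turned to -0.38 with the first 3 principal components. That of Mt1 was 0.15 with the components (adjusted p = 0.896). Fkbp5, a chaperone of the glucocorticoid receptor, differed by 0.85 ± 0.19 (adjusted p = 0.00447), and by 0.19 with Dbp and Bmal1. Cebpd, Cebpb, Glul and Tsc22d3 also passed, with differences from 0.90 to 0.47. Klf15, a factor of amino acid use in fasting, differed by 0.42 ± 0.13 (adjusted p = 0.0586). With the block as a covariate 2 of the list passed, Zbtb16 and Mt1, and without block 1, or with Dbp and Bmal1, 1 passed. In the other 46 animals 12 of 16 slopes were positive and 0 passed.

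Core clock and clock output genes also differed between the sets. Dbp, an output factor of the clock that binds D-box letters, ran from 3.82 through 5.32 to 6.72 in the low animals and from 2.39 through 3.92 to 4.82 in the high animals, and 0 of the 23 high animals reached the low median. Dbp fell by 1.51 ± 0.20 (adjusted p = 4.17e-06), and over all 92 animals its Pearson correlation with Pdk4 was -0.60. Nfil3, the repressor that competes for the same letters, went the other way, from 2.83 through 4.88 to 6.08 in the low and from 4.96 through 6.24 to 6.78 in the high animals, a difference of 1.22 ± 0.19 (adjusted p = 5.83e-05), which was 0.32 with the components (adjusted p = 0.665). Per3 fell by 0.71 ± 0.14, Ciart by 0.67 ± 0.20, Hlf by 0.61 ± 0.14 and Bhlhe41 by 0.57 ± 0.10. Of 16 clock genes, 5 were lower and 1 higher, against 1.57% and 1.88% of all genes tested, with a median of -0.21. Bmal1, the activator of the clock, differed by 0.37 ± 0.11 (adjusted p = 0.0513). Of these 6, 4 passed with the block as a covariate, Ciart (adjusted p = 0.203) and Hlf (adjusted p = 0.112) no longer, and 3 without block 1. With the components 0 passed, and Dbp fell by 0.99 (adjusted p = 0.174). With Dbp and Bmal1 as covariates, where these genes themselves cannot differ, 0 passed. Nfil3 then differed by 0.50 (adjusted p = 0.45) and Per3 by -0.20 (adjusted p = 0.795). The labels name no hour of collection, so the part of time of day in the results was not tested. The fits with Dbp and Bmal1 are no such test, because neither gene is a measured hour and Dbp itself follows Pdk4.

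The 250 bases before the start of Per3, chr4:151044666-151044915 (minus strand, RefSeq, GRCm38.p6), are shown because they hold the D-box letters at 2 places, in capitals:
Per3: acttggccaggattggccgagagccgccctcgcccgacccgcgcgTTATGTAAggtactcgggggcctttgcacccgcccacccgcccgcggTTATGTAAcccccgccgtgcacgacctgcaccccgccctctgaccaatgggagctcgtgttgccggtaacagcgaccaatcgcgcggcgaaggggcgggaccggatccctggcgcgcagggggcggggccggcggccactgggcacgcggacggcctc
These matches begin 205 and 158 bases before the start and do not overlap each other or another motif searched. The letters were in 0.642% of tested genes with a window, in 1 of the higher and in 1 of the lower genes, the latter being Per3.

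**Figure D4:**
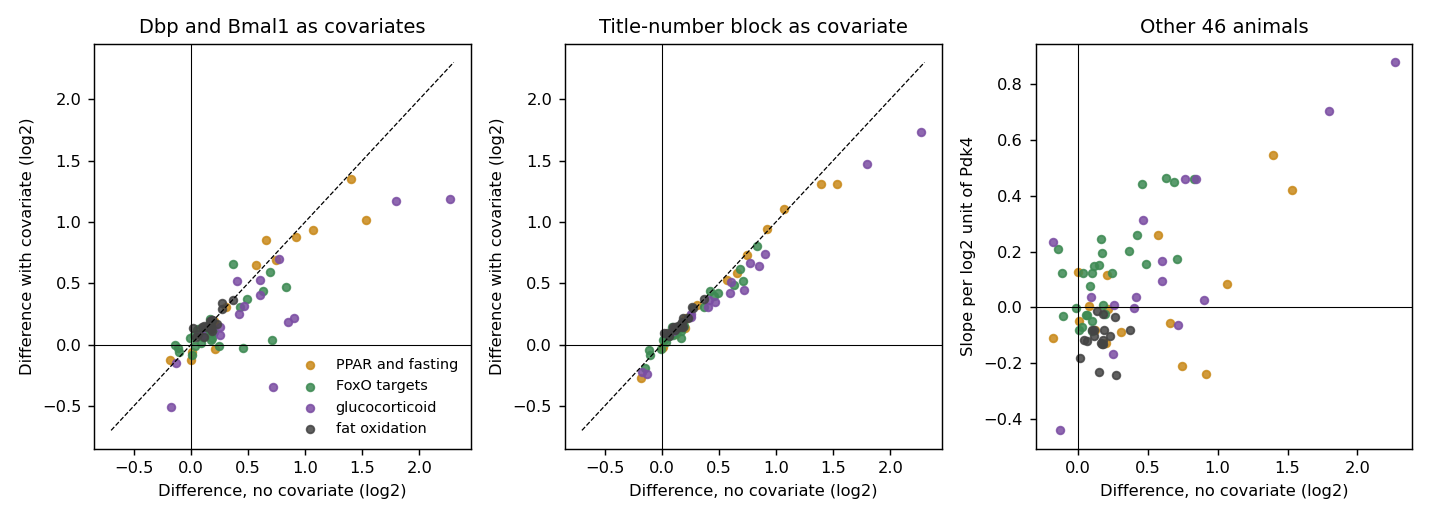
For members of the PPAR and fasting, FoxO target, glucocorticoid and fat oxidation lists, the difference between the sets (log2) on the horizontal axis is plotted against the difference with Dbp and Bmal1 as covariates (left), the difference with the block as a covariate (centre) and the slope per log2 unit of Pdk4 in the other 46 animals (right); the dashed line marks equal values. Ucp3 stays near the line at 1.35 and 1.31, Fbxo32 drops to -0.03 on the left, and all 18 fat oxidation enzymes lie below 0 on the right.

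Among 20 regulators of muscle metabolism, 3 were higher and 0 lower, against 1.88% and 1.57% of all genes tested. Nr4a3, an orphan nuclear receptor that exercise and adrenaline induce, ran from -0.12 through 2.27 to 5.19 in the low animals and from 1.78 through 5.09 to 7.34 in the high animals, a difference of 2.18 ± 0.42 (4.52-fold, adjusted p = 0.00111). Ppargc1a, the coactivator PGC-1alpha, ran from 4.76 to 5.93 in the low animals and from 5.31 to 8.30 in the high animals, with all 23 high animals above the low median. Its difference was 0.87 ± 0.17 (adjusted p = 0.0012). Lpin1, a phosphatidate phosphatase that also acts as a coactivator, differed by 0.48 ± 0.10 (adjusted p = 0.00279). These 3 also passed with the block as a covariate, and 0 passed with Dbp and Bmal1 or without block 1, where the differences were 0.91 and 0.86 for Ppargc1a, 0.40 and 0.42 for Lpin1, and 1.84 and 1.58 for Nr4a3. With the first 3 principal components 0 passed either. The differences were then 0.44 for Ppargc1a (adjusted p = 0.576), 0.30 for Lpin1 (0.324) and 0.45 for Nr4a3 (0.841). The receptors Ppara (0.30 ± 0.18, adjusted p = 0.436) and Ppard (0.10 ± 0.05, adjusted p = 0.411) were not past the threshold. Of 14 genes of amino acid breakdown, 1 was higher, against 3.44% of all genes called in either direction: the aminotransferase Got1 (0.27 ± 0.07, adjusted p = 0.0233). Got1 kept its call with the block and with the marker scores, but not with 15 or 30 animals per set, by slope, with quantile normalization, with the slow fibre score, with Dbp and Bmal1, with the components, without the extreme animals or without block 1. Its slope in the other 46 animals was -0.11 ± 0.09.

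Genes of fat synthesis mostly had negative differences between the sets. Of 15, 0 were higher and 1 lower, Insig1, a sterol sensor of the endoplasmic reticulum, which fell by 0.55 ± 0.12 (adjusted p = 0.00447) and by 0.55 with the block (adjusted p = 0.0323), but missed the threshold without block 1 (adjusted p = 0.0513), with Dbp and Bmal1 (adjusted p = 0.169) and with the components (adjusted p = 0.194). The direction was not shared by the other 46 animals: 9 of 15 slopes were positive with a median of 0.05, and that of Insig1 was 0.16 ± 0.17. The list median was -0.50, with Fasn, fatty acid synthase, at -0.99 ± 0.43 (adjusted p = 0.221) and Srebf1, its regulator, at -0.31 ± 0.16 (adjusted p = 0.344). The animals differed widely in these genes, with Fasn from 4.48 to 10.65 in the low and from 3.81 to 8.55 in the high animals. Adipocyte markers are given beside them: 3 of 10 had a positive difference, their median was -0.21, the summed level ran from 293.8 through 469.5 to 1609 on the linear CPM scale in the low and from 312.5 through 560.4 to 950.9 in the high animals, and the defining marker Adipoq ran from 1.79 to 6.61 and from 2.59 to 5.17. The marker past the threshold, Plin4 (0.60 ± 0.12, adjusted p = 0.002), is also a lipid droplet protein of muscle. With all 8 marker scores as covariates the lipogenic list had a median of -0.31 and 1 member past the threshold.

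The genes past the threshold with the largest differences, members of the lists included, were mixed in kind. Both rankings given here, of rises and of falls, hold only among genes with a symbol and a mean of at least 1. Besides Mt2, Nr4a3, Mt1, Angptl4 and Ucp3, the 12 largest rises among genes past the threshold included the decoy receptor Tnfrsf23 (1.48 ± 0.43), Depp1 (1.45 ± 0.28), which FoxO factors are known to induce, the embryonic myosin heavy chain Myh3 (1.32 ± 0.38), the stress factor Atf3 (1.28 ± 0.31) and the slow fibre light chain Myl3 (1.26 ± 0.38). Myh3 was high in a few animals, up to 8.35 in the high set where the median was 4.54. The predicted genes Gm49668 and Gm48942 complete them, for which reads from overlapping genes cannot be told apart. Among the 12 largest falls of genes past the threshold, after Dbp, were the interferon-induced Ifit3 (fell by 1.28 ± 0.36), the methyltransferase Inmt (fell by 0.79 ± 0.23), the adhesion molecule Opcml (fell by 0.77 ± 0.21), the actin-responsive coactivator Mrtfa (fell by 0.74 ± 0.13), the endothelial Notch ligand Dll4 (fell by 0.73 ± 0.14) and the melanocortin receptor Mc5r (fell by 0.71 ± 0.14). The predicted genes Gm11266 and Gm19299 and Bcl6b, Foxo6 and Sertad4 made up the rest. Adding the block as a covariate ended the calls of Tnfrsf23 (adjusted p = 0.138), Myh3 (0.0963), Gm48942 (0.179), Ifit3 (0.121), Gm19299 (0.0813), Inmt (0.308), Opcml (0.125), Foxo6 (0.079), Sertad4 (0.28) and Bcl6b (0.487, a difference of -0.33), and that of Mt2 (0.089). Of all these rises and falls, only Ucp3 and Dbp passed without block 1, and only Ucp3 with Dbp and Bmal1 as covariates. Myl3 also missed the threshold with the slow fibre score (adjusted p = 0.0881) and by slope over all 92 animals (0.21). Its slope in the other 46 animals was -0.96 ± 0.57.

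As a description, the 10 genes whose level followed Pdk4 most closely over all 92 animals were 6 that rose with it and 4 that fell. Ucp3 stood apart, with a Pearson r of 0.88 and a Spearman rho of 0.89, an r of 0.83 to 0.92 in the 5 blocks and 0.88 without the 2 animals farthest from the median Pdk4. Angptl4 (r = 0.69, rho = 0.65), Tmem140 (0.66 and 0.63), Gabarapl1 (0.64 and 0.59), Acot2 (0.63 and 0.66) and Nfil3 (0.63 and 0.61) rose with Pdk4. Mrtfa (r = -0.65, rho = -0.63), the bone morphogenetic protein co-receptor Rgma (-0.64 and -0.67), the actin-binding protein Smtn (-0.64 and -0.66) and Ttyh2, of a family of chloride channels (-0.63 and -0.61), fell. They were picked as the highest of 13440 correlations, and each permutation p was 1e-05, the smallest that 100000 resamples can give; the adjusted p of their slopes in limma lay between 8.46e-28 and 1.68e-08. Rgma, which ran from 4.35 to 5.20 in the low and from 3.80 to 4.93 in the high animals, fell by 0.50 ± 0.08 between the sets (adjusted p = 5.83e-05) and had a slope of -0.53 ± 0.09 in the other 46 animals (adjusted p = 0.0154). Between the sets Rgma kept its call with the block (-0.49, adjusted p = 0.00122) but missed the threshold without block 1 (-0.48, adjusted p = 0.0513), with Dbp and Bmal1 (-0.50, adjusted p = 0.0602) and with the components (-0.21, adjusted p = 0.457).

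**Figure D5:**
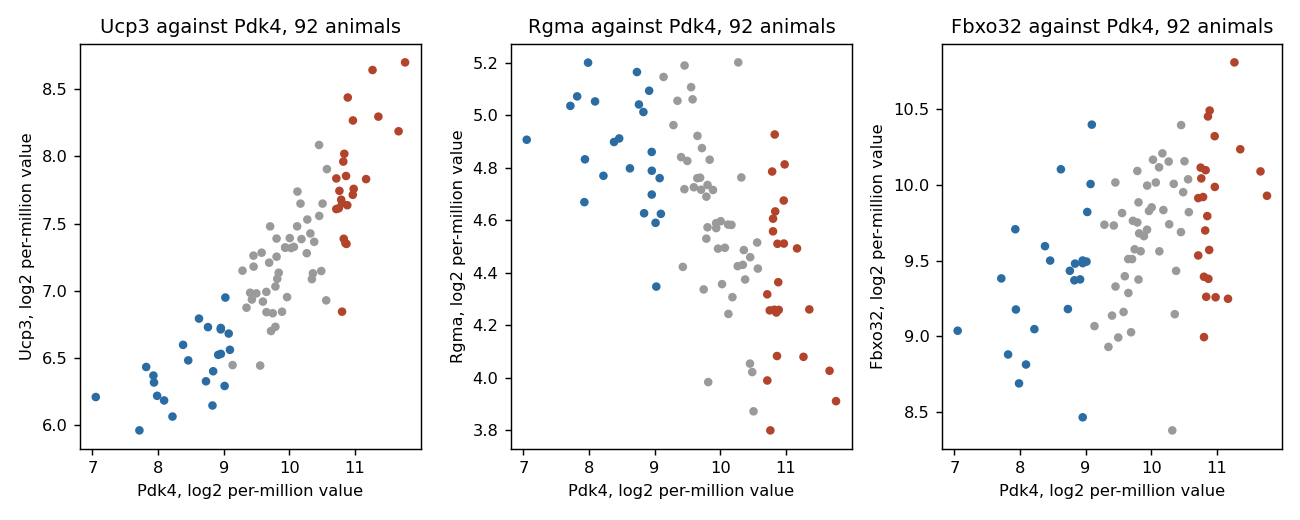
Ucp3, Rgma and Fbxo32 against Pdk4 (both log2 values) in 92 animals, with the 23 highest Pdk4 animals in red, the 23 lowest in blue and the other 46 in grey. Ucp3 rises along the whole range (r = 0.88), Rgma falls (r = -0.64), and Fbxo32 is widely scattered (r = 0.47).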

How the data were processed

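The deposited table holds log2 values made by the authors. On the linear scale each sample summed to between 898071 and 1140761, so the values are close to log2 CPM, with the exact scaling not given in the sources used here. The submitters' processing notes name bcl2fastq, MultiQC, kallisto 0.50.1, edgeR and the mm10 build, without their roles. Depth is unknown and no counting interval was computed, so precision comes from the spread between animals. Of 13456 lines, 15 were repeats, leaving 13441 genes.

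Animals were ranked by Pdk4, and the 23 highest and 23 lowest were compared for the other 13440 genes with limma 3.58.1 (R 4.3.3, mean-variance trend, no covariate) and Benjamini-Hochberg adjustment at 0.05. Slopes on Pdk4 were fitted in the other 46 animals. The procedure was run on simulated data with independent genes. These had no blocks and no gene that ranked the animals, so the run does not cover those features of the data. Alternatives were 12 planned and 2 added after seeing the data (without title-number block 1, and the slow fibre score). No gene set was tested. List symbols were matched to the table directly or under an alternative name, and 326 of 330 listed genes were found, the remainder being not analysed here.

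Genes named are up to 12 rises and 12 falls with the largest differences among genes past the threshold with a mean of at least 1, up to 4 members per list with the smallest p, a fixed set of fuel, FoxO and clock genes, the 10 genes most correlated with Pdk4, and genes past both fits; a member of the fixed set is not reported here. Other list members named by the text were chosen after their values were seen. The compared animals, the 26 lists and the named set were chosen with earlier results of these data known. The labels do not say how samples share litters or days, so p-values measure only the spread between these animals. Promoter windows came from RefSeq (58 of 73 genes matched) and gene positions from GENCODE M21.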

Additional observations from a re-analysis of the deposited data

How the results depend on the processing

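Of the genes tested, 3.44% passed between the Pdk4 sets, 252 higher and 211 lower. With the block as a covariate 1.03% passed (83 and 55), with all 8 marker scores 2.07% (162 and 116), with Dbp and Bmal1 0.126% (13 and 4), with the first 3 principal components 0.119% (11 and 5), by slope over all 92 animals 6.01% (403 and 405) and without title-number block 1 0.193% (14 and 12). The cause of these shifts was not tested, except that the last leaves fewer animals and that the standard error over all genes rose by a median factor of 1.5 with Dbp and Bmal1 and 1.42 with the components. All 463 called genes kept their direction with the block, the marker scores, the slow fibre score, 15 or 30 animals per set, the slope, without the highest and the lowest animal and without block 1, while 461 did with Dbp and Bmal1 and 417 with the components. All of these fits share animals with the fit that picked the genes, so a kept direction is largely fixed by that choice. In the other 46 animals 2 genes passed, with the block 1, with the marker scores 0, and over all 92 animals 808. The PPAR and fasting list (8) gave 3 calls with Dbp and Bmal1, with the components and without block 1. The FoxO target list (7) gave 2 with the block, the marker scores or without the highest and the lowest animal, 4 with the slow fibre score, and 0 with Dbp and Bmal1, with the components or without block 1. The fat oxidation list (4) gave 1 with the block or quantile normalization, 2 with the marker scores, with 30 animals per set, by slope or without the extreme animals, and 0 with Dbp and Bmal1, the components or without block 1. With the components the sign turned for Mt2 (-0.38), Gm11266 (0.11), Sertad4 (0.18), Foxo1 (-0.035), Fbxo32 (-0.15), Irs2 (-0.015), Cdkn1a (-0.010) and Hk2 (-0.073), and with Dbp and Bmal1 for Fbxo32 (-0.030). Pdk2, at -0.013, gave 0.024 with the block, 0.0047 with the marker scores, 0.027 with Dbp and Bmal1, 0.013 with the components and 0.018 without block 1. The third component correlated with Pdk4 at 0.63 over the 92 animals and Dbp at -0.60, so each carries part of the ranking itself. No paired analysis was possible because the labels give 1 group and no pairing. Depth is unknown, so the precision of low-level genes shows only in the spread between animals.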

Other observations

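Of 8 heat shock genes, 3 were higher in the high-Pdk4 animals and 0 lower, against 1.88% and 1.57% of all genes tested, with a median difference of 0.45. In the other 46 animals 8 of 8 slopes were positive, against 48.75% of all genes. Hspa8, the constitutive chaperone, ran from 9.57 through 10.29 to 10.72 in the low animals and from 10.11 through 10.61 to 11.12 in the high animals, a difference of 0.39 ± 0.08 (adjusted p = 0.00183). Bag3, a co-chaperone of muscle, differed by 0.34 ± 0.08 (adjusted p = 0.0149) and the small heat shock protein Hspb1 by 0.52 ± 0.15 (adjusted p = 0.0417). With the block as a covariate 2 of the 3 passed, Hspb1 no longer (adjusted p = 0.154), and without block 1, where Hspb1 differed by 0.21 (adjusted p = 0.726), 0 passed. With the components 0 passed, nor did any with Dbp and Bmal1 (adjusted p = 0.331 for Hspa8, 0.225 for Bag3 and 0.646 for Hspb1). The inducible Hspa1a (1.58 ± 0.58) and Hspa1b (1.55 ± 0.56) had larger differences but were so scattered, from -0.18 to 8.20 and from 1.23 to 8.46 in the low animals, that their adjusted p-values were 0.134 and 0.125, and their near-identical sequences may share reads. Of 10 immediate early genes, 1 was higher, Atf3, and of 10 hypoxia genes, 1, the vascular growth factor Vegfa (0.27 ± 0.06, adjusted p = 0.00447), against 1.88% of all genes tested. Vegfa and Atf3 missed the threshold without block 1 (adjusted p = 0.229 and 0.515) and with Dbp and Bmal1 (0.336 and 0.29).

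The structural and respiratory genes of the fibre gave few calls, and in lists this short 0 calls lie near the 3.44% of all genes called. Of 16 oxidative phosphorylation genes, 0 passed, and 15 had a positive difference with a median of 0.05, against 1 positive slope of 16 in the other 46 animals. Markers of macrophages, of fibroblasts and of endothelial cells gave 0 calls of 8 each (medians -0.07, -0.17 and -0.14), Schwann cell markers 0 of 8 (-0.09), fast fibre markers 0 of 10 (-0.04) and blood markers 0 of 5 (-0.16). Endothelial markers had 2 of 8 positive differences, beside the endothelial ligand Dll4 that was lower, and their summed level ran from 228.6 through 274.3 to 340.4 on the linear CPM scale in the low and from 180.8 through 261.1 to 341.9 in the high animals.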
